A study of Mus musculus with 8 samples.

Results

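Integrins are receptors with which cells hold on to the extracellular matrix, and 10 genes that encode their subunits are described here in cultured mouse stem cells and in Sca1 cells derived from them. The genes were Itgb1, Itgb3 and Itgb5, which encode beta subunits, and Itga1, Itga3, Itga5, Itga6, Itga7, Itga8 and Itgav, which encode alpha subunits. They were taken by name from 23483 genes in a table of read counts, with the transcript row of the highest total standing for each gene. Each of the 10 genes had enough counts to be tested.

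Poly(A)-selected RNA was sequenced from 8 libraries in 4 groups of 2. The knock-down group was Sca1 cells transduced with a lentiviral shRNA against Set7. The NTC group was Sca1 cells transduced with the non-target shRNA vector. Both transduced groups were selected with puromycin for a week or longer, which the other groups were not. The untreated Sca1 group carried no construct, and the mESC group was mouse embryonic stem cells with no construct. Cells of every group were of strain C57BL/6 and were labelled with a glucose concentration of 5.5 mM. The stem cells were kept with the cytokine LIF in the medium. Sca1 cells came from stem cells grown without LIF on gelatin, were sorted with magnetic beads against the surface protein Sca1, and were then grown on without LIF, so that the sorted fractions were enriched and not pure. The study used 1 target sequence for the knock-down, and the labels do not say whether libraries of a group came from separate cultures or transductions. The p-values therefore measure the spread between these libraries, which may be technical.

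Set7 is a lysine methyltransferase encoded by Setd7, on chromosome 3. The 21-base target of the shRNA, shown because the identity of the knock-down group rests on it, was
Setd7 target: CCGTGTTCAGAGATACCAAAT
Setd7 had 14.0 and 10.8 CPM (read counts scaled to a common library size by the TMM method) in the knock-down libraries, against 60.7 and 66.6 CPM in the NTC libraries. Untreated Sca1 libraries had 76.3 and 66.3 CPM of it, against 11.2 and 16.5 CPM in stem cells.

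Gene rows summed to between 2507938 and 5080266 counts per library. A single row, NR_046233, took 11.53% of mESC replicate 2 and 12.0% of untreated Sca1 replicate 2, against 0.4035% to 1.618% of the other libraries, and these were also the libraries whose description carries the number 56. For most comparisons the counts of integrin genes called are also given without them. That fit leaves a single library of untreated Sca1 cells and a single library of mESC. Its calls that involve these groups therefore draw on the spread of the knock-down and NTC libraries, and are not replicated calls. Without that row, the chi-square per degree of freedom between replicates was 1.84 in the knock-down, 1.5 in NTC, 12.9 in untreated Sca1 and 20.4 in mESC, so the spread shared by all groups in the tests was wider than that within the transduced groups. Ly6a, which encodes the Sca1 antigen, had 9.81 and 12.5 CPM in the knock-down, 5.44 and 6.46 CPM in NTC, 13.0 and 4.42 CPM in untreated Sca1 and 9.85 and 5.72 CPM in mESC. The sort marker thus did not separate Sca1 cells from stem cells at the RNA level. In these bulk libraries, fewer cells of a type and less RNA per cell cannot be told apart.

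An integrin is a heterodimer of 1 alpha and 1 beta subunit, and the pairing sets what it binds. The beta1 subunit joins with many alpha subunits to form receptors for collagens, laminins and fibronectin, while beta3 and beta5 join with alphav to bind ligands that carry the Arg-Gly-Asp (RGD) motif, such as vitronectin. Inside the cell, talin and kindlin bind the beta tail and activate the receptor, and focal adhesion proteins tie it to actin. In stem cell cultures, alpha6beta1 and alpha5beta1 are known as receptors for laminin and fibronectin, and in smooth muscle alpha1, alpha7 and alpha8 pair with beta1.

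Most integrin RNAs were lower in the knock-down than in its construct control. Of the 10 genes, 7 were lower in the knock-down than in NTC and 0 were higher, by edgeR's quasi-likelihood test with Benjamini-Hochberg adjustment at 0.05. Over all 13966 genes tested, 10.1% were lower and 4.25% were higher. The libraries of the 2 groups did not overlap for any of the 10 genes. Of these, 8 lay lower and 2 lay higher, and 32.9% and 31.1% of all genes did so. The genes that fell were Itgb1, Itgb5, Itga3, Itga6, Itga7, Itga8 and Itgav. The median log2 change of the 10 genes was -0.75, and the median of all genes was -0.00. Without knock-down replicate 2, 4 of the 10 were called lower, and over all genes that fit called 537 lower in place of 1404. Without both code 56 libraries, 8 were lower and 2, Itgb3 and Itga1, were higher (adjusted p = 0.0215 and 0.00715), and over all genes of that fit 17.5% were lower and 13.7% were higher.

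**Figure D1:**
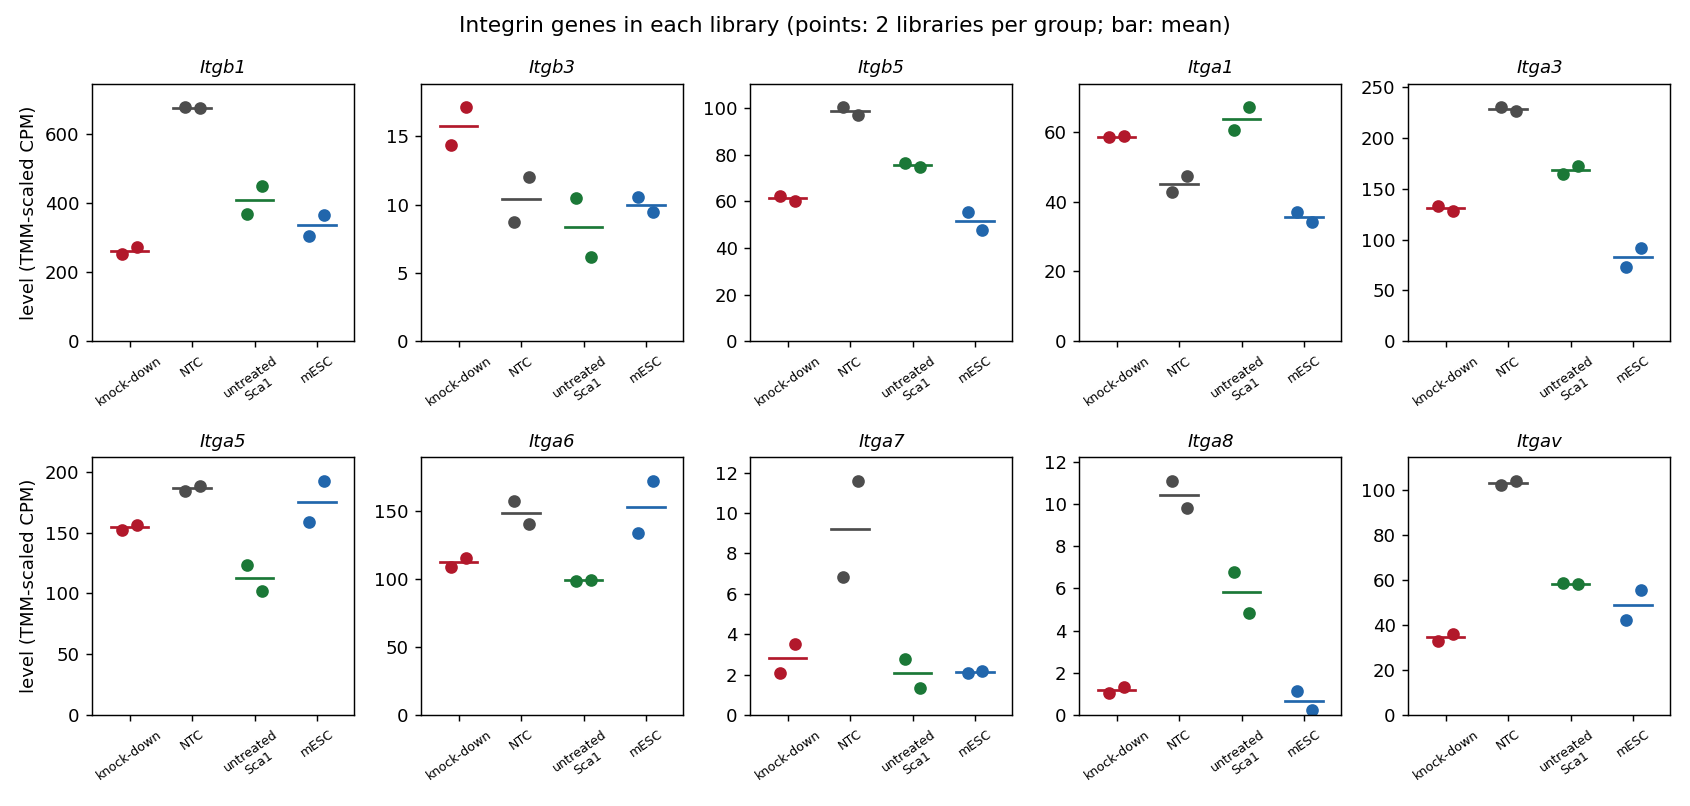
Levels of the 10 integrin genes in TMM-scaled CPM (vertical axes, each from 0 with its own scale) in the knock-down, NTC, untreated Sca1 and mESC groups; points are libraries, 2 per group, and lines are group means. For Itgb1 the knock-down libraries lie at 252 and 273 CPM and the NTC libraries at 678 and 674 CPM, while for Itgb3 the knock-down libraries are the highest, at 14.4 and 17.1 CPM.

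Itgb1 encodes beta1, the common partner of most alpha subunits described here (NM_010578, chr8:128685654-128733579 in the GRCm38.p6 build, as are the coordinates that follow). It had 252 and 273 CPM in the knock-down libraries, against 678 and 674 CPM in NTC. The libraries of the groups did not overlap, and the NTC libraries were the highest of all 8. Itgb1 was 2.57-fold lower in the knock-down than in NTC (log2 change -1.36 ± 0.13 SE, adjusted p = 4.89e-07, edgeR, n = 2 each). Within description codes 12 and 34, each of which holds 1 library of either group, the log2 differences were -1.43 and -1.30. Untreated Sca1 cells had 367 and 448 CPM and mESC had 306 and 364 CPM, so Itgb1 was lower in the knock-down also against untreated Sca1 cells (-0.63 ± 0.13, adjusted p = 0.00216). That call was not made without knock-down replicate 1 (adjusted p = 0.0633).

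Itgb5, the beta subunit of the vitronectin receptor alphavbeta5, had 62.3 and 60.2 CPM in the knock-down, against 100.45 and 97.0 CPM in NTC (NM_001145884, chr16:33829665-33949338). Its second transcript row, NM_010580, held identical counts. It was 1.61-fold lower in the knock-down (-0.69 ± 0.13, adjusted p = 0.00146, edgeR), and without knock-down replicate 2 the adjusted p was 0.0583. The levels were 76.6 and 74.7 CPM in untreated Sca1 cells and 55.6 and 47.5 CPM in mESC. The knock-down libraries thus lay between those of untreated Sca1 cells and mESC, with no call against either (adjusted p = 0.143 and 0.205, edgeR).

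Itgb3 stood apart among the beta genes (NM_016780, chr11:104608000-104670476). Its subunit pairs with alphav, and with alphaIIb in platelets. It had 14.4 and 17.1 CPM in the knock-down, 8.74 and 12.0 CPM in NTC, 10.5 and 6.19 CPM in untreated Sca1 and 10.5 and 9.46 CPM in mESC. The knock-down libraries were the highest of all 8, without overlap. Against NTC the difference did not pass the test (0.61 ± 0.27, adjusted p = 0.15), and against untreated Sca1 cells it passed narrowly (0.88 ± 0.30, adjusted p = 0.0485, edgeR). The call against untreated cells was not made in 5 of the 8 fits that left out 1 library, namely without either knock-down library (adjusted p = 0.115 and 0.314), either NTC library (0.0686 and 0.0703) or untreated Sca1 replicate 2 (0.257), nor by DESeq2 (0.17), with library totals (0.0623) or summed rows (0.0651), or without both code 56 libraries (0.123). A fit of the knock-down and NTC libraries alone gave an adjusted p of 0.0211 for Itgb3 against NTC.

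Among the alpha genes whose products bind RGD ligands, Itgav and Itga8 fell and Itga5 did not pass the test. Itgav encodes alphav, the receptor subunit for vitronectin and for latent TGF-beta (NM_008402, chr2:83722303-83806917). It had 32.9 and 35.8 CPM in the knock-down, against 102 and 104 CPM in NTC. Itgav was 2.98-fold lower in the knock-down than in NTC (-1.58 ± 0.15, adjusted p = 8.57e-07, edgeR), with within-code log2 differences of -1.62 and -1.52. Against untreated Sca1 cells, which had 58.4 and 57.9 CPM, it was 1.68-fold lower in the knock-down (-0.75 ± 0.16, adjusted p = 0.00411). Without knock-down replicate 1 that second call was not made (adjusted p = 0.0627). The mESC libraries had 42.1 and 55.5 CPM, and the knock-down libraries lay below all 6 others.

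Itga8 encodes alpha8, which pairs with beta1 and binds nephronectin (NM_001001309, chr2:12106632-12301985). It was among the 2 lowest alpha genes per length in every group, with 1.05 and 1.32 CPM in the knock-down (3 and 6 counts) against 11.1 and 9.81 CPM in NTC (47 and 44 counts). Itga8 was 8.42-fold lower in the knock-down than in NTC (-3.07 ± 0.46, adjusted p = 0.000146, edgeR). Untreated Sca1 cells had 6.80 and 4.86 CPM (22 and 11 counts) and mESC had 1.14 and 0.220 CPM (5 and 1 counts). Itga8 was lower in the knock-down also against untreated Sca1 cells (-2.26 ± 0.53, adjusted p = 0.00648), and the knock-down and mESC libraries overlapped. The call against untreated cells was not made without knock-down replicate 1, knock-down replicate 2 or untreated Sca1 replicate 1 (adjusted p = 0.06, 0.0784 and 0.0675). The exons of an antisense gene, E030013I19Rik, overlap those of Itga8, and the strand of the libraries is not given in the sources used here. Its row held 0 and 0 counts in the knock-down, 2 and 3 in NTC, 1 and 5 in untreated Sca1 and 0 and 0 in mESC.

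Itga5 encodes alpha5, the partner of beta1 in the main fibronectin receptor (NM_010577, chr15:103344286-103366791). It had 152 and 157 CPM in the knock-down, against 185 and 188 CPM in NTC. The libraries did not overlap, but the difference did not pass the test over all groups (-0.27 ± 0.13, adjusted p = 0.183, edgeR). In a fit of the knock-down and NTC libraries alone it passed (adjusted p = 0.0046). Untreated Sca1 cells had 124 and 102 CPM, and Itga5 was higher in the knock-down than in those (0.45 ± 0.13, adjusted p = 0.0279). This call was not made without either knock-down library (0.127 and 0.187), either NTC library (0.0562 and 0.0563) or untreated Sca1 replicate 2 (0.194), nor with library totals (0.0639).

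Itgb1, Itgav and Itga8 were the members that were lower in the knock-down than in both NTC and untreated Sca1 cells, and RefSeq windows of the 250 bases before a transcript start are shown for that reason. RefSeq promoter windows (GRCm38.p6) were matched for 7 of the 10 genes: Itga1, Itga3, Itga5, Itga8, Itgav, Itgb1 and Itgb5. The motifs searched on both strands were the GC box GGGCGG, the TEAD site GGAATG, the AP-1 site TGANTCA and the CArG box, and matches are in capitals. The windows, each 5′ to 3′ on the gene's strand, lay at chr8:128685404-128685653 on the plus strand for Itgb1, at chr2:83724147-83724396 on the plus strand for Itgav and at chr2:12301945-12302194 on the minus strand for Itga8. The gene spans given above come from a RefSeq table of genes, and within them the window of Itgav lies inside the span and the 3′ part of that of Itga8 does too, while that of Itgb1 ends at the base before its span.
Itgb1: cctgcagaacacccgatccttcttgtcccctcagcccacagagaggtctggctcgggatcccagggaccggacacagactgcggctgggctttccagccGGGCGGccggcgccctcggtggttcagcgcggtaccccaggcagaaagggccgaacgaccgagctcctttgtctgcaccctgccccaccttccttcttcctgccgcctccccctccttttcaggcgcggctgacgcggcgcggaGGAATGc
Itgav: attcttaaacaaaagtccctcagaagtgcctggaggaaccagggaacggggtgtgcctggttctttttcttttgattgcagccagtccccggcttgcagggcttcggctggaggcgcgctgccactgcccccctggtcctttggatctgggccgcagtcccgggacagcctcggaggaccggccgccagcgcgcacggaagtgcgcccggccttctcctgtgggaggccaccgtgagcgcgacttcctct
Itga8: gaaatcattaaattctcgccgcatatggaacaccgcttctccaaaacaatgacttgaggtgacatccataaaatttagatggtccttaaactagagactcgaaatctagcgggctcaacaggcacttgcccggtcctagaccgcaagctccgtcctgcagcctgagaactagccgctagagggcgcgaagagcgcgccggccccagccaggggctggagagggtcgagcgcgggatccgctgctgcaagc
The window of Itgb1 held 1 GC box and 1 TEAD match, and the windows of Itgav and Itga8 held none of the motifs. Of 32851 RefSeq windows of the same length, 32.7% held a GC box, 12.6% a TEAD match, 6.75% an AP-1 match and 1.47% a CArG match. The GC content was 68.0% for Itgb1, 64.4% for Itgav and 56.4% for Itga8, with a median of 52.4% over all windows. Of the other windows, Itgb5 held 3 GC boxes, Itga5 held 2, the windows of Itga3 held 3 and 1, and Itga1 held none. The 3 genes shown shared no match to these letters in this window.

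The laminin-binding subunits also fell. Itga3 encodes alpha3, a receptor subunit for laminins of basement membranes (NM_013565, chr11:95044475-95076844). It had 133 and 128 CPM in the knock-down, against 230.4 and 226 CPM in NTC, and was 1.75-fold lower in the knock-down (-0.81 ± 0.12, adjusted p = 0.000185, edgeR). Levels in untreated Sca1 cells were 165 and 173 CPM, above the knock-down in each library, but that difference did not pass the test (-0.37 ± 0.13, adjusted p = 0.0541). The mESC libraries were the lowest, with 72.8 and 92.2 CPM.

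Itga6 encodes alpha6, the laminin receptor subunit long used as a surface marker of stem cells (NM_008397, chr2:71786886-71858427). It had 109 and 116 CPM in the knock-down, against 157 and 140.4 CPM in NTC. The call was marginal (-0.40 ± 0.13, adjusted p = 0.0495, edgeR). It was lost without either knock-down library (0.294 and 0.212), either NTC library (0.385 and 0.12) or either untreated Sca1 library (0.0503 and 0.0513), and with RLE factors (0.0578), library totals (0.112), DESeq2 (0.122) or summed rows (0.0717). Its lowest levels, 98.9 and 99.4 CPM, were those of untreated Sca1 cells, and mESC had 134 and 172 CPM.

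Itga7 encodes alpha7, a laminin receptor subunit of muscle (NM_008398, chr10:128933421-128958286). It was scarce, with 2.10 and 3.52 CPM in the knock-down (6 and 16 counts) against 6.85 and 11.6 CPM in NTC (29 and 52 counts). It was 3.13-fold lower in the knock-down (-1.65 ± 0.41, adjusted p = 0.0106, edgeR). The call was lost without knock-down replicate 1 (0.128), knock-down replicate 2 (0.069) or NTC replicate 2 (0.235), and by DESeq2 (0.0868). Untreated Sca1 cells had 2.78 and 1.33 CPM and mESC had 2.06 and 2.20 CPM, so that the NTC libraries were the highest of the 8. Mettl7b, which overlaps Itga7 on the opposite strand, had 0 counts in every library.

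Itga1 encodes alpha1, a collagen receptor subunit of smooth muscle and mesenchyme (NM_001033228, chr13:114958079-115101964). Its order of groups differed from that of Itgb1. It had 58.5 and 58.9 CPM in the knock-down, 42.8 and 47.3 CPM in NTC, 60.6 and 67.2 CPM in untreated Sca1 and 37.1 and 34.1 CPM in mESC. The knock-down libraries lay above both NTC libraries, with no call (0.38 ± 0.15, adjusted p = 0.0925, edgeR). Without mESC replicate 1 or 2 the adjusted p was 0.0413 or 0.0382, and in a fit of these groups alone it was 0.00689.

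**Figure D2:**
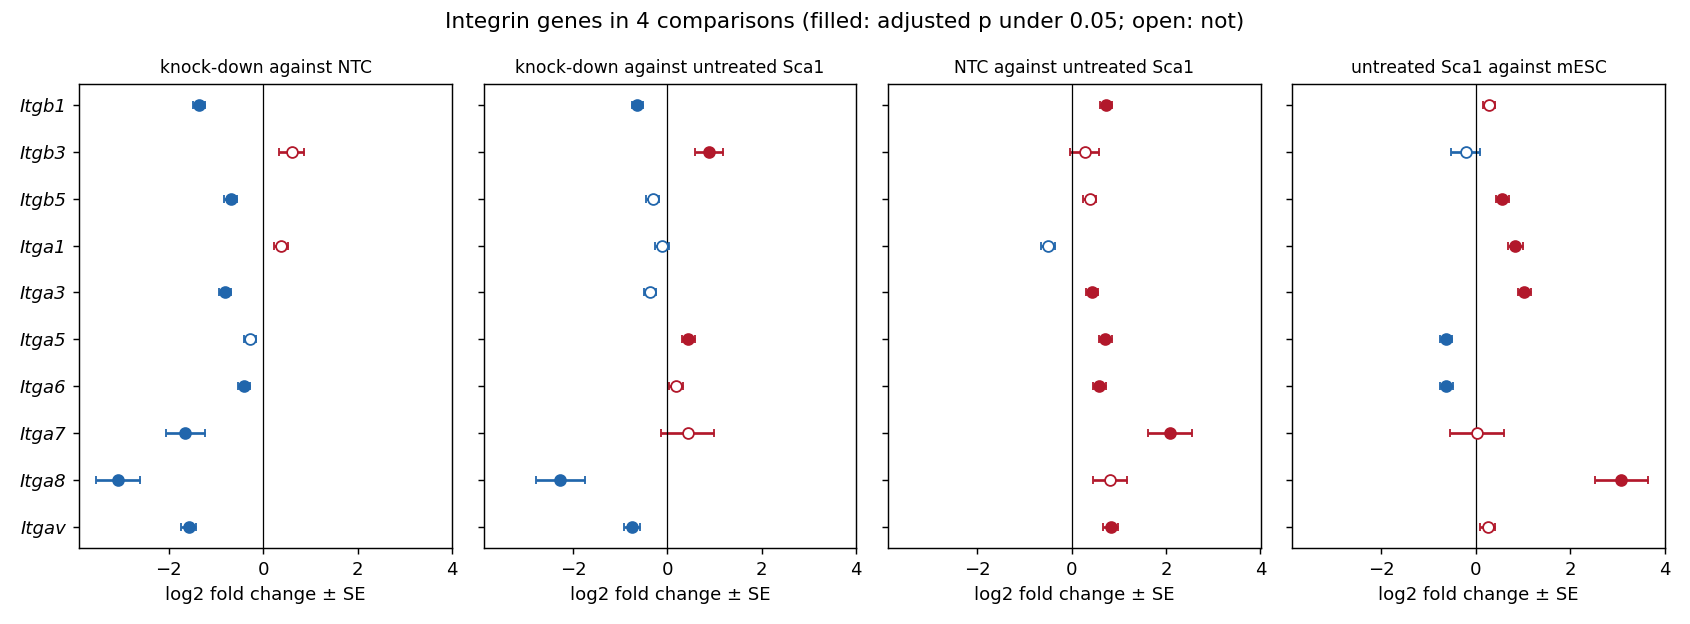
Log2 fold changes (horizontal axes) with their standard errors for the 10 integrin genes in 4 comparisons; filled points passed an adjusted p of 0.05, red is higher and blue is lower in the group named first. Itgb1, Itga8 and Itgav lie left of 0 in both knock-down panels, at -1.36, -3.07 and -1.58 against NTC and at -0.63, -2.26 and -0.75 against untreated Sca1.

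NTC, the other side of this contrast, had integrin levels that differed from those of untreated Sca1 cells. These groups differ in transduction with the construct, puromycin selection and description code, and these cannot be told apart here. Of the 10 genes, 6 were higher in NTC than in untreated Sca1 cells and 0 were lower, and over all genes 3.88% were higher and 1.11% were lower. The median log2 change was 0.65 for the integrin genes and 0.01 for all genes. The genes that rose were Itgb1 (0.73 ± 0.13, adjusted p = 0.00286), Itgav (0.82 ± 0.15, 0.0042), Itga5 (0.72 ± 0.13, 0.0046), Itga7 (2.08 ± 0.46, 0.0159), Itga6 (0.59 ± 0.14, 0.0185) and Itga3 (0.44 ± 0.12, 0.0496), by edgeR's test.

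These calls rested on both NTC libraries. They were not made without either NTC library, and far fewer of all genes were called higher in those fits too. Each of those fits leaves 1 library in that group, so effect sizes are given. The log2 change without NTC replicate 1 or 2 was 0.727 and 0.735 for Itgb1 and 0.837 and 0.811 for Itgav. For Itga5 it was 0.732 and 0.704. Over all libraries the changes were 0.731, 0.824 and 0.717. The call of Itga7 was also lost without untreated Sca1 replicate 2 (0.0968). Itga6 and Itga3 lost their calls without any 1 of the 6 Sca1 cell libraries (adjusted p of 0.054 or more), and Itga3 also with RLE factors (0.0573), DESeq2 (0.0655), library totals (0.0685), summed rows (0.0717) or a fold threshold of 1.5. Without both code 56 libraries 7 genes were higher, with Itgb5 added (0.0303), and 1, Itga1, was lower (0.0259), and over all genes of that fit 9.1% were higher and 7.6% were lower. Itga8 had a log2 change of 0.81 ± 0.37 (adjusted p = 0.22) and Itgb5 of 0.38 ± 0.13 (0.106). Itga1 was the only member whose NTC libraries both lay below the untreated ones (-0.50 ± 0.15, adjusted p = 0.0609). Itgb5 and Itga1 passed the test when either mESC library was left out (0.0332 and 0.032 for Itgb5, 0.0194 and 0.0179 for Itga1). The fit without code 56 held 1 untreated Sca1 library. NTC and untreated cells share 1 description code, 34, within which the difference was 0.88 for Itgb1, 0.82 for Itgav and 0.60 for Itga5.

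The knock-down and NTC comparisons share the NTC libraries, so a high NTC level enters both. The knock-down was therefore also set against untreated Sca1 cells. There, 3 of the 10 genes were lower (Itgb1, Itgav and Itga8) and 2 were higher (Itgb3 and Itga5), and over all genes 9.89% were lower and 7.34% were higher. Itga1 (-0.12 ± 0.15, adjusted p = 0.648), Itga6 (0.18 ± 0.14, 0.414) and Itga7 (0.43 ± 0.56, 0.656) had no call. Without both code 56 libraries 5 were lower, with Itga3 (0.00535) and Itgb5 (0.0452) added, and 1, Itga5, was higher, where 14% and 11% of all genes were lower and higher. That fit held 1 untreated Sca1 library. Over all libraries, Itga7 overlapped between the groups, and its fall in the knock-down was seen against NTC and not against untreated cells. The log2 change of Itga5 was 0.45 against untreated cells and -0.27 against NTC, and that of Itga6 was 0.18 and -0.40, with NTC above both other Sca1 groups.

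The integrin genes differed from those of stem cells in both directions. Between untreated Sca1 cells and mESC, 4 of the 10 genes were higher in the Sca1 cells and 2 were lower in them. Of all genes, 18.7% were higher and 16.8% were lower, so the share of integrin genes called lower was close to that of all genes. The largest rise was that of Itga8, at 8.46-fold (3.08 ± 0.56, adjusted p = 0.000367, edgeR), from the counts given above. Its log2 change was 4.57 without mESC replicate 1 and 2.35 without mESC replicate 2, with the call made in both fits. Itga3 was 2.04-fold higher in untreated Sca1 cells (1.03 ± 0.13, 7.41e-06), Itga1 was 1.79-fold higher (0.84 ± 0.15, 0.000326) and Itgb5 was 1.47-fold higher (0.55 ± 0.14, 0.00455).

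Itga5 and Itga6, the fibronectin and laminin receptor genes abundant in stem cells, went the other way. Itga5 was 1.55-fold lower in the untreated cells (-0.63 ± 0.13, adjusted p = 0.00116), and Itga6 was also 1.55-fold lower (-0.63 ± 0.14, 0.00161, edgeR). No call of these 6 genes was lost when any 1 library was left out. The size of the fall varied with the description code, at -0.36 in code 34 and -0.91 in code 56 for Itga5, and at -0.44 and -0.79 for Itga6. Itgb1 (0.28 ± 0.13, adjusted p = 0.0912) and Itgav (0.25 ± 0.16, 0.225) had no call over all libraries. Itgb1 passed without untreated Sca1 replicate 1 (0.0309) or mESC replicate 2 (0.0187), and Itgav without mESC replicate 2 (0.0288). Leaving out the code 56 libraries leaves 1 library in each of these groups, so differences are given within each code instead. For Itgb1 they were 0.26 in code 34 and 0.30 in code 56, and for Itgav they were 0.47 and 0.06. Itgb3 (-0.21 ± 0.31, adjusted p = 0.629) and Itga7 (0.02 ± 0.57, 0.983) overlapped between the groups.

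Set in order, NTC was the highest group for Itgb1, Itgb5, Itga3, Itga5, Itga7, Itga8 and Itgav by the mean of 2 libraries. For Itgb1 the order was NTC, untreated Sca1, mESC and knock-down, with untreated cells and mESC not told apart and the knock-down below mESC at the edge of the test (-0.35 ± 0.13, adjusted p = 0.0475, edgeR). That call was made in 4 of 19 other fits, namely without either untreated Sca1 library (0.0318 and 0.0368), mESC replicate 1 (0.00533) or both code 56 libraries (0.0406). Itgav had the same order, with the knock-down below mESC (-0.50 ± 0.16, 0.0277), and that call was made in 8 of 19 other fits. It was lost without either knock-down library, either NTC library or mESC replicate 2 (0.0574 to 0.225), by DESeq2 (0.0783), with library totals (0.134) and in a fit of the groups compared (0.0674). For Itga3 the order was NTC, untreated Sca1, knock-down and mESC, and the knock-down stayed above mESC (0.66 ± 0.13, 0.000957). Itga1 was above mESC in the knock-down as well (0.72 ± 0.15, 0.00149).

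The remaining orders separated fewer groups. For Itgb5 the order was NTC, untreated Sca1, knock-down and mESC, and for Itga8 it was the same. For both genes NTC was not told apart from untreated cells, nor the knock-down from mESC. The knock-down was told apart from untreated cells for Itga8 (adjusted p = 0.00648, edgeR) and not for Itgb5 (0.143). Itga8 gave an adjusted p of 0.461 for the knock-down against mESC. Itga6 was highest in mESC and NTC, which were not told apart (-0.04 ± 0.13 for NTC against mESC, adjusted p = 0.835), then came the knock-down, which was below mESC (-0.45 ± 0.13, 0.0184), and untreated Sca1. The knock-down call of Itga6 against mESC was lost without either knock-down library or mESC replicate 2 (0.164, 0.0998 and 0.169) and with library totals (0.159). For Itga1 it was untreated Sca1, knock-down, NTC and mESC, with no neighbours told apart. For Itgb3 it was knock-down, NTC, mESC and untreated Sca1, and for Itga7 it was NTC, knock-down, mESC and untreated Sca1, where only Itga7 in NTC differed from the next group. For Itga5 the order was NTC, mESC, knock-down and untreated Sca1; NTC and mESC were not told apart (0.09 ± 0.13, 0.627), nor were the knock-down and mESC (-0.18 ± 0.13, 0.32). For the knock-down against mESC, 2 integrin genes rose and 3 fell, and 13.5% and 12.4% of all genes did so. The fit without both code 56 libraries held 1 mESC library, and Itga6 and Itgav lost their calls in it. Within code 34, the log2 differences of the knock-down from mESC were -0.16 for Itgb1, -0.21 for Itga6 and -0.23 for Itgav. They were 0.66 for Itga1 and 0.81 for Itga3. NTC cells had 6 of the 10 genes above mESC and 0 below, against 19.6% and 15.5% of all genes, and without both code 56 libraries Itga5 also passed (0.0261).

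Per kilobase of transcript, Itgb1 was the leading beta gene in every library. It made up 75.5% and 77.0% of the summed level of the 3 beta genes in the knock-down, 84.7% and 84.8% in NTC, 79.3% and 83.2% in untreated Sca1 and 81.0% and 85.6% in mESC. The summed level of the 7 alpha genes was 98.1 and 100.5 CPM per kb in the knock-down, 148 and 146 in NTC, 100.7 and 97.4 in untreated Sca1 and 92.3 and 114 in mESC. The alpha total of the knock-down thus lay beside that of untreated cells, while its Itgb1 level, at 66.1 and 71.5 CPM per kb, lay below the 96.2 and 118 CPM per kb of untreated cells. The ratio of Itgb1 to the alpha total was 0.674 and 0.712 in the knock-down, 1.20 and 1.21 in NTC, 0.956 and 1.21 in untreated Sca1 and 0.869 and 0.835 in mESC. The knock-down libraries had the lowest ratios of the 8. These ratios are of RNA, and Itgav also pairs with other beta subunits, so they do not give the number of receptors.

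**Figure D3:**
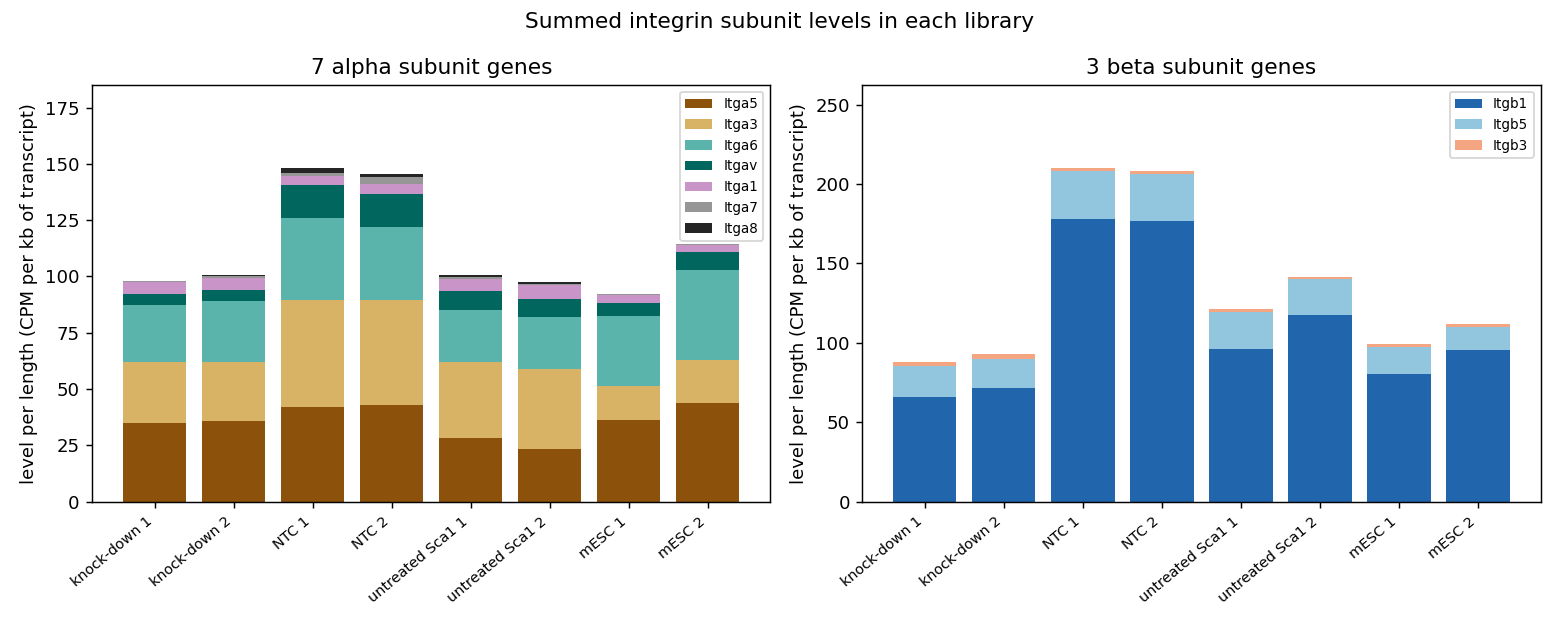
Levels of the 7 alpha genes (left) and 3 beta genes (right) stacked in each library, in TMM-scaled CPM per kb of transcript. NTC libraries have the highest alpha totals, 148 and 146 CPM per kb, and the knock-down libraries have the lowest Itgb1 levels, 66.1 and 71.5 CPM per kb.

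Itga5, Itga3 and Itga6 were the leading alpha genes per length in all groups. In the knock-down Itga5 came first, with 35.4% and 35.6% of the alpha total, whereas Itga3 came first in NTC (32.0% in both libraries) and in untreated Sca1 cells (33.6% and 36.5%). In mESC the order was Itga5 (39.2% and 38.4%), Itga6 (33.7% and 34.9%) and Itga3 (16.2% and 16.6%). Itgav made up 4.76% and 5.06% in the knock-down, against 9.78% and 10.1% in NTC. Itga1 was 5.44% and 5.35% in the knock-down and 2.63% and 2.96% in NTC. Itga7 and Itga8 together stayed the least abundant in each group.

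Of 17 other integrin subunit and integrin-like genes looked up, 16 had a row and 10 passed the filter on low counts. Itga10 was not analysed here. Itga9, which pairs with beta1 and binds tenascin-C, had 25.9 and 16.5 CPM in the knock-down, against 43.7 and 39.0 CPM in NTC, and was lower in the knock-down (-1.0015 ± 0.25, adjusted p = 0.0132, edgeR). Itgb7, which forms leukocyte integrins, had 18.9 and 21.3 CPM in the knock-down, against 9.69 and 13.2 CPM in NTC, and was higher (0.82 ± 0.24, 0.0275). Both calls were lost in some fits without 1 library: Itga9 without knock-down replicate 2 (0.29), NTC replicate 1 (0.118) or NTC replicate 2 (0.053), and Itgb7 without any 1 of the knock-down or NTC libraries (0.0619 to 0.314). Untreated Sca1 libraries had 18.5 and 16.8 CPM of Itga9, which overlapped those of the knock-down (0.22 ± 0.30, adjusted p = 0.676, edgeR). Itga9 was higher in NTC than in untreated cells (1.22 ± 0.27, 0.0166), a call lost without any 1 library of either group. Itgb7 was higher in the knock-down than in untreated cells (1.29 ± 0.27, 0.0034), a call lost without knock-down replicate 2. Itga4, the alpha4 subunit, had 1 and 8 counts in the knock-down against 18 and 15 counts in NTC, with no call (-1.64 ± 0.56, 0.0616). Itga2b, Itga11, Itgae, Itgal, Itgam, Itgb4 and the integrin-like gene Itgbl1 had no call. Itga2, Itgad, Itgax, Itgb2, Itgb6 and Itgb8 were below the filter, and Itgax had 0 counts in every library.

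Genes of the ligands of these receptors were lower in the knock-down as well. For the lists that follow, the shares of all genes were 10.1% lower and 4.25% higher in the knock-down against NTC. They were 9.89% and 7.34% in the knock-down against untreated Sca1 cells. In NTC against untreated Sca1 cells they were 1.11% and 3.88%, and in untreated Sca1 cells against mESC 16.8% and 18.7%. Among 20 tested genes of RGD-type ligands and related matrix proteins, 16 were lower in the knock-down than in NTC and 0 were higher (median log2 change -2.15). The genes with the smallest p were Tnc, the tenascin-C gene (-5.65 ± 0.21, adjusted p = 4.9e-12), the fibrillin genes Fbn2 (-4.25 ± 0.18, 1.72e-11) and Fbn1 (-3.39 ± 0.17, 2.1e-10), and Tgfbi, which encodes an RGD-containing matrix protein (-4.76 ± 0.24, 2.95e-10, edgeR). Tnc averaged 5.07 ± 1.26 CPM in the knock-down and 248 ± 0.0352 CPM in NTC (SD, n = 2 each). Against untreated Sca1 cells, 11 of the 20 genes were lower in the knock-down and 1 was higher (median -1.31). In NTC against untreated Sca1 cells 10 of these 20 genes were higher and 0 lower, among them Fn1, which encodes fibronectin (1.06 ± 0.14, adjusted p = 0.000338). In untreated Sca1 cells against mESC 14 were higher and 2 were lower. Spp1, which encodes osteopontin, was one of those lower, with 125 ± 8.62 CPM in the untreated cells against 448 ± 24.8 CPM in mESC (-1.84 ± 0.12, 3.98e-09).

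Genes of laminin chains, the ligands of alpha3, alpha6 and alpha7, were lower in the knock-down than in NTC for 6 of 9 tested, with 0 higher (median -0.73). They included Lama4 (-3.07 ± 0.44, adjusted p = 8.54e-05) and the abundant Lama1, with 626 ± 21.4 CPM in the knock-down and 1037 ± 36.9 CPM in NTC (-0.73 ± 0.13, 0.000576, edgeR). Against untreated Sca1 cells, 1 of the 9, Lama4, was lower in the knock-down and 1, Lama5, was higher (median -0.03). These counts were near the shares of all genes, 9.89% and 7.34%. Lama4 (-2.54) lost its call without knock-down replicate 2, where its log2 change was -2.04. Lama5 (0.58) lost its call without knock-down replicate 1 (log2 change 0.51) or untreated Sca1 replicate 1 (0.43). Lama1 averaged 639 ± 66.3 CPM in untreated cells and had no call there. In untreated Sca1 cells against mESC 5 of the 9 were lower and 2 higher. Lama1 (-1.43 ± 0.13, 1.23e-07) and Lamc1 (-1.27 ± 0.13, 5.06e-07), chains of embryonic laminin-111, were lower there, as Itga6 was. Lama4 was higher in untreated Sca1 cells (2.00 ± 0.43, 0.00158).

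Of 12 genes of collagens that bind alpha1beta1 or alpha2beta1, 11 were lower in the knock-down than in NTC and 0 were higher (median -3.01). Col3a1, of fibrillar collagen III, averaged 6.67 ± 0.516 CPM in the knock-down and 658 ± 2.12 CPM in NTC (-6.60 ± 0.16, adjusted p = 1.05e-14, edgeR). Col1a2, of collagen I, averaged 25.7 ± 1.26 CPM in the knock-down and 297 ± 8.08 CPM in NTC (-3.53 ± 0.13, 4.9e-12). The gene of their receptor subunit, Itga1, had a log2 change of 0.38 in the same contrast, without a call. Against untreated Sca1 cells, 7 of the 12 collagen genes were lower in the knock-down and 0 were higher (median -2.18). In untreated Sca1 cells against mESC 9 of the 12 were higher and 3 lower, and Col1a2 averaged 185 ± 0.439 CPM in the untreated cells against 1.46 ± 0.200 CPM in mESC. The genes that were lower were Col4a1 (-0.77 ± 0.14, 0.000316) and Col4a2 (-0.68 ± 0.15, 0.00197), of basement membrane collagen IV, and Col13a1 (-1.15 ± 0.22, 0.000491).

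The intracellular partners were counted in 2 lists. Of 22 tested integrin activators and inactivators, 6 were lower in the knock-down than in NTC and 0 were higher (median -0.34). They included Flnc (-1.76 ± 0.13, adjusted p = 4.23e-08) and Flna (-0.80 ± 0.12, 0.000201), which encode filamins that bind beta tails, Nisch (-0.58 ± 0.11, 0.00124), which encodes an alpha5-binding protein, and Cd151 (-0.75 ± 0.14, 0.0016), which encodes a tetraspanin bound to laminin-binding integrins. Nisch lost its call without knock-down replicate 2 (0.0643). Against untreated Sca1 cells, 3 of the 22 were lower in the knock-down and 2 were higher (median -0.25). Of all genes 9.89% were lower and 7.34% were higher, so these counts were near those shares. Flna averaged 983 ± 30.8 CPM in the knock-down and 1024 ± 18.6 CPM in untreated cells, without a call. Of 40 tested focal adhesion scaffold and kinase genes, 18 were lower and 0 higher in the knock-down than in untreated Sca1 cells (median -0.42). Against NTC, 13 of the 40 were lower in the knock-down and 2 were higher (median -0.32). Parva, of the alpha-parvin that binds integrin-linked kinase, was lower (-1.78 ± 0.20, 5.33e-06), as were Pdlim7 (-0.81 ± 0.13, 0.000398) and Zyx (-0.67 ± 0.13, 0.00168), which encodes zyxin. Ptk2b (0.73 ± 0.21, 0.026) and Parvb (0.67 ± 0.20, 0.0325) were higher, and both of these calls were lost without any 1 of the knock-down or NTC libraries (0.0901 to 0.269). Zyx lost its call without knock-down replicate 2 (0.0828).

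In NTC against untreated Sca1 cells, 6 of 9 laminin genes and 8 of 12 collagen genes were higher and 0 were lower. Of 40 focal adhesion genes 0 were higher and 1, Parvb, was lower (-0.88 ± 0.20, adjusted p = 0.018, edgeR). Over all genes 3.88% were higher and 1.11% were lower, so the focal adhesion counts were near those shares. Parvb lost that call without any 1 of the knock-down or NTC libraries or untreated Sca1 replicate 1 (0.0524 to 0.274). Without both code 56 libraries, which leaves 1 untreated Sca1 library, more focal adhesion genes were lower in NTC, as were more of all genes. Without NTC replicate 1, which leaves 1 in that group, fewer laminin, collagen and RGD-type ligand genes were higher, and fewer of all genes were. In the knock-down against NTC, leaving out 1 library left 12 to 16 of the RGD-type ligand genes lower, 9 to 11 of the collagens, 4 to 6 of the laminins, 3 to 7 of the activators and 4 to 15 of the focal adhesion genes, with the lowest counts without knock-down replicate 2. Without both libraries of description code 56 the lower counts in the knock-down against NTC were 16, 11, 8, 12 and 20. In that contrast 17.5% of all genes were lower. The lists were written with earlier results of these libraries known, so their counts are no independent evidence of a direction.

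**Figure D4:**
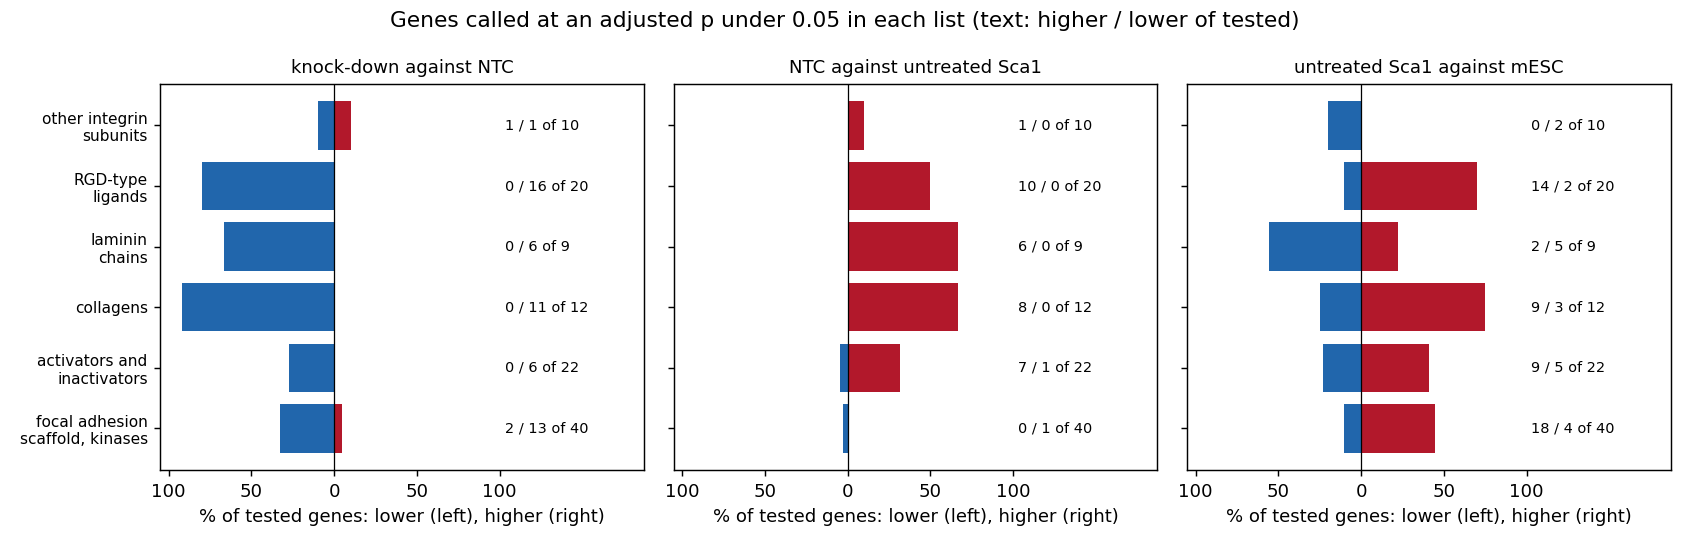
Share of the tested genes of each list (horizontal axes, percent; lower to the left in blue, higher to the right in red) that passed an adjusted p of 0.05 in 3 comparisons, with the counts higher and lower beside the bars. In the knock-down against NTC 16 of 20 RGD-type ligand genes and 11 of 12 collagen genes are lower. In either list 0 are higher, and of all genes 10.1% are lower and 4.25% are higher.

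Markers of other cell states moved with these groups. Beside the counts that follow, 10.1% of all genes were lower and 4.25% were higher in the knock-down than in NTC. The summed level of 7 smooth muscle markers was 163 to 171 CPM in the knock-down, 581 to 606 CPM in NTC, 585 to 944 CPM in untreated Sca1 and 40.1 to 47.9 CPM in mESC, and 5 of the 7 were lower in the knock-down than in NTC. The summed level of 8 fibroblast and mesenchyme markers was 144 to 148 CPM in the knock-down, 342 to 353 CPM in NTC, 194 to 234 CPM in untreated Sca1 and 224 to 255 CPM in mESC. Of 7 of them tested, 6 were lower in the knock-down than in NTC, and Prrx1, Dcn and Lum had 0 counts in mESC. Most of the mESC sum was Pdgfra, which averaged 84.5 ± 1.07 CPM in untreated Sca1 and 216 ± 16.3 CPM in mESC (SD, n = 2 each). Of the 7 markers tested, the other 6 were higher in untreated Sca1 than in mESC. The summed level of 8 pluripotency markers was 2333 to 2387 CPM in the knock-down, 1831 to 1875 CPM in NTC, 1803 to 2148 CPM in untreated Sca1 and 3028 to 3493 CPM in mESC, with 2 of 8 higher and 0 lower in the knock-down than in NTC. Leaving out 1 library gave 0 to 5 higher pluripotency markers in that contrast, and leaving out both code 56 libraries gave 7 higher and 1 lower. Their part in the integrin results was not tested.

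The other marker lists were those of cell types that differentiating stem cell cultures can hold. The summed level of 7 endothelial markers was 103 to 120 CPM in the knock-down, 96.9 to 102 CPM in NTC, 52.1 to 55.3 CPM in untreated Sca1 and 171 to 190 CPM in mESC, and 0 of 5 tested were called between the knock-down and NTC. Blood cell markers summed to 20.7 to 21.1 CPM in the knock-down, 26.9 to 30.8 CPM in NTC, 19.0 to 32.4 CPM in untreated Sca1 and 46.9 to 53.5 CPM in mESC. Ptprc, which defines leukocytes, had 0 counts in NTC, untreated Sca1 and mESC. Endoderm markers summed to 573 to 652 CPM in the knock-down, 542 to 553 CPM in NTC, 268 to 353 CPM in untreated Sca1 and 900.0 to 954 CPM in mESC. Trophoblast markers summed to 242 to 250 CPM in the knock-down, 201 to 203 CPM in NTC, 199.6 to 207 CPM in untreated Sca1 and 67.1 to 86.1 CPM in mESC. Epithelial markers summed to 1149 to 1162 CPM in the knock-down, 1338 to 1364 CPM in NTC, 980.0 to 1381 CPM in untreated Sca1 and 779 to 856 CPM in mESC.

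For each integrin gene, the 3 genes with the most similar levels were found by the correlation of log2 CPM over the 8 libraries, among 8203 genes with a mean of 20 CPM or more. The 8 points fall into 4 groups and share their library depths, so the coefficients are descriptions. The pattern of Itgb1 was closest to that of Erbb2 (Pearson r = 0.989), Lrig1 (0.987) and Itgav (0.986), and that of Itgav to Lrig1 (0.994), Slc39a6 (0.992) and Erbb2 (0.989). Itga3 was closest to Cyp26a1 (0.996), Mrc2 (0.995) and Ccn1 (0.991), and Itga8 to Plat (0.997), Nrp1 (0.989) and Cdh11 (0.988). Itgb5 was closest to Timp3 (0.987), Ctps2 (0.984) and Nisch (0.984), and Itga1 to Mid1ip1 (0.986), Lhpp (0.985) and Gclm (0.982). Itgb3 was closest to the pluripotency gene Nanog (0.966), then to Abr (0.951) and Ostf1 (0.949). Itga5 was closest to Anks3 (0.98), Ctns (0.979) and Atp10d (0.97), Itga6 to Polk (0.967), Cars2 (0.966) and Susd6 (0.965), and Itga7 to Tor1aip1 (0.979), Trafd1 (0.966) and Cers2 (0.944). Itgav, among the neighbours of Itgb1, was the only integrin member found in any of the 10 sets of neighbours. Itgb3, Itga7 and Itga8 lay below 20 CPM in every library, so they could not appear as neighbours.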

How the data were processed

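The authors deposited whole-number read counts per RefSeq transcript for 8 libraries, and judged from the values these counts were not scaled. BWA 0.5.9, SAMtools 0.1.17 and edgeR 0.19 are listed in the submitters' processing notes, which state no roles. Build, annotation, counting program and strand were not given in the sources used here.

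Of 29614 rows, 28985 were named by a RefSeq gene table (GRCm38.p6) and 173 by GENCODE vM21 metadata, and 456 stayed unnamed. Of the genes, 3853 had several rows, identical in all rows for 2062, so the row with the highest total was used. Isoforms of 1 gene were not separated. Gene coordinates and promoter windows are RefSeq's (GRCm38.p6), and transcript lengths are those of GENCODE vM21.

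Counts were filtered with filterByExpr (minimum count 10), given TMM factors and tested with edgeR 4.0.16 (R 4.3.3), by robust quasi-likelihood F tests in 1 fit of all 8 libraries with 4 group means (common dispersion 0.0133, 4 residual degrees of freedom) and Benjamini-Hochberg adjustment over 13966 genes. Unless another test is named, adjusted p-values are from this fit and changes named as such passed 0.05. Standard errors are the log2 change over the square root of F. Levels are TMM-scaled CPM, and log2 CPM used a prior count of 2. The code was tested on simulated counts.

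The members and the 14 lists (190 genes) were chosen with earlier results of these data known. Named genes were the 10 members, Setd7, Ly6a, the other tested subunits and Itgbl1. To these came up to 4 genes per pathway list, comparison and direction with the smallest p. Alternatives were RLE factors, library totals, DESeq2 1.42.0, other filters, the compared groups alone, the description code as a block, a fold threshold of 1.5, summed rows and each library left out. The fit without the code 56 libraries and that without row NR_046233 were added after the data were seen. The former left a single library of untreated Sca1 and a single library of mESC.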

Additional observations from a re-analysis of the deposited data

How the results depend on the processing

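With 2 libraries per group, leaving 1 out decides several counts, of integrin genes and of all genes. Leaving out 1 library at a time gave 4 to 7 lower and 0 to 1 higher integrin genes in the knock-down against NTC, 4 to 6 higher and 2 to 2 lower in untreated Sca1 against mESC, and 0 to 7 higher and 0 to 1 lower in NTC against untreated Sca1. When only the groups compared were fitted, 2 integrin genes were higher in the knock-down than in NTC (8 lower). Of all genes in that fit, 14.7% were higher and 18% were lower. In the fit of NTC and untreated Sca1 cells, 1 integrin gene was lower in NTC, and 2.64% of all genes were. Without both libraries of description code 56, 2 integrin genes were higher in the knock-down than in NTC, where 13.7% of all genes were. With a fold threshold of 1.5, 3 were lower in the knock-down than in NTC, where 3.98% of all genes were. In untreated Sca1 against mESC 2 were higher and 0 lower, where 9.39% and 5.23% of all genes were. In NTC against untreated Sca1 cells 0 were higher, where 0.1% of all genes were. The cause of these differences was not tested, other than that the threshold asks for a larger change. Library totals in place of TMM factors moved the median of all genes by -0.017 in the knock-down against NTC, 0.089 in NTC against untreated Sca1, 0.105 in the knock-down against mESC and 0.12 in NTC against mESC. They gave 259 higher and 1154 lower, 493 and 18, 1906 and 1071, and 2912 and 1209 genes in these comparisons, in place of 594 and 1404, 542 and 155, 1884 and 1731, and 2738 and 2160 with TMM.

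Directions turned only in genes without a call. Itga6 in NTC against mESC was 0.091 with library totals, 0.048 with the replicate block and 0.16 without code 56, and -0.21 to 0.15 with 1 library left out. Itga7 in untreated Sca1 against mESC was -0.0016 with DESeq2, -0.0078 with the replicate block and -0.67 to 0.38 with 1 library left out. With 1 left out, Itga7 was -0.018 to 0.72 in the knock-down against mESC and -0.039 to 1.13 against untreated Sca1. Itgb3 was -0.0095 in NTC against mESC, 0.011 in untreated Sca1 against mESC and -0.020 in NTC against untreated Sca1 without code 56. With 1 left out these were -0.19 to 0.27, -0.69 to 0.078 and -0.014 to 0.75. Itga5 in NTC against mESC was -0.047 to 0.23 with 1 left out.

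Replicate differences of the knock-down and NTC correlated at 0.05 over 13966 genes, so the numbers are not shown to pair those libraries. Those of untreated Sca1 and mESC correlated at 0.265, so part of the replicate difference was shared between these groups. With the description code as a replicate block, 7 integrin genes were lower in the knock-down than in NTC, where 12.7% of all genes were. In untreated Sca1 against mESC 5 were higher and 2 lower, with Itgb1 added (0.28, adjusted p = 0.00913, edgeR). There 21.2% of all genes were higher and 20.2% were lower, so the share called lower was near that of all genes. In NTC against untreated Sca1, 6 were higher, where 5.86% of all genes were.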
